A study of Homo sapiens with 8 samples.

Results

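The 10 genes described here mark neural stem cells and glia: NES, SOX2, SOX4, SOX9, SOX11, OLIG2, GFAP, GJA1, CSPG4 and S100B. They were chosen by name from a list of identity genes, and each was found in the deposited count table by its Ensembl identifier. They are 10 of 58884 genes in that table. The cells are U87, an established human glioblastoma line, whose total RNA was sequenced after ribosomal RNA was depleted. The 8 libraries fell into 4 groups of 2. The DMSO group received the solvent. The AsiDNA group was under long-term AsiDNA treatment, a short double-stranded oligonucleotide that imitates a broken DNA end and draws repair enzymes away from the genome. The belinostat group received 1 µM belinostat, an inhibitor of histone deacetylases, for 24 h. The combination group, named AsiDNA with belinostat here, was under long-term AsiDNA and received the same belinostat treatment. The labels' protocols call the cells MTU87 and LTAU87 and give no dose or length of the AsiDNA treatment, so AsiDNA and the long culture that goes with it cannot be told apart. All groups are of a single cell line grown with serum. Whether the 2 replicates of a group are separate cultures is not stated, so a p-value here reflects the spread between libraries, possibly technical.

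Neural stem cells and glia are told apart by a small set of transcription factors and structural proteins. SOX2 and, in immature neural cells, SOX11 and SOX4 bind DNA through a shared HMG domain, while SOX9 acts in the step from stem cell to astrocyte and OLIG2 in the oligodendrocyte lineage. Nestin (NES) is the intermediate filament protein of neural progenitors and GFAP that of astrocytes. GJA1 encodes the main gap junction protein of astrocytes, CSPG4 a membrane proteoglycan of oligodendrocyte precursors and pericytes, and S100B a calcium-binding protein of mature astrocytes. In glioblastoma several of these genes are used to grade how stem-like or glia-like a tumor cell is.

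The libraries held 6057394 to 9699637 counts, and 3 counts, the upper limit that a count of 0 allows, correspond to 0.309 to 0.495 CPM (counts scaled to the library's total) in a library. Such limits, and the exact intervals of ratios of low counts, cover counting error only. Intervals of log2 fold changes come from the fit to all genes and also include its estimate of the spread between libraries. Of the 58884 genes 14741 had enough counts to be tested. The DMSO replicates were less alike than those of any other group: over 1.5-fold apart for 11.1% of the genes whose mean log2 CPM exceeded 4, against 0.184% to 0.786% in the other groups. The nuclear RNAs MALAT1 and NEAT1 together made up 0.911% of the first DMSO library and 2.81% of the second, 0.688% to 0.753% in AsiDNA, 12.2% to 13.4% in belinostat and 2.06% to 3.12% in the combination.

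The libraries carried few reads of most genes that define neural stem cells or glia. Over all 63354409 counts, SOX2 and SOX11 had 0 counts in each of the 8 libraries, which allows at most 0.0474 CPM for each over the whole series. S100B had 4 counts in all and GFAP 8. Of the other defining markers, OLIG1 and SOX10 had 0 counts and MSI1 had 1. In the same lists NES had 1462 counts, PDGFRA 339, MBP 399, CSPG4 6208, SLC1A2 109 and SLC1A3 3346. Of 9 mesenchymal and fibroblast markers, all had at least 1 count in DMSO, and their summed level lay between 16471 and 17639 normalised CPM there and between 30303 and 35530 with belinostat, most of it fibronectin (FN1). FN1 went from a mean of 13526 in DMSO to 30478 normalised CPM with belinostat. COL3A1 went from 3.77 to 15.6 and LUM from 39.3 to 43.3. COL6A1 went from 1655 to 1002, COL1A2 from 1427 to 1015 and DCN from 32.6 to 15.8. COL1A1 went from 249 to 245 and PDGFRB from 123 to 102, and THY1 had 5 counts in all. The 6 astrocyte markers summed to 48.7 to 53.9 normalised CPM in DMSO, mainly SLC1A3, and the 5 neural stem markers to 5.25 to 5.95. The 7 oligodendrocyte lineage markers summed to 132 to 156 there, mainly CSPG4. Of 7 microglia and macrophage markers AIF1 and P2RY12 had 0 counts in every library, while CSF1R had 627 counts in all and CD68 153. That list summed to 19.2 to 20.7 normalised CPM in DMSO and 5.59 to 5.87 with belinostat, and CSF1R went from 17.4 to 3.02. Of 5 endothelial markers CDH5 and CLDN5 had 0 counts, while PECAM1 had 667 and TEK 74. Many of the neural stem and glial markers were thus at or near 0, while NES, SLC1A3, CSPG4, MBP and PDGFRA were not. The set is named here for what its genes do elsewhere, not for the identity of these cells.

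**Figure D1:**
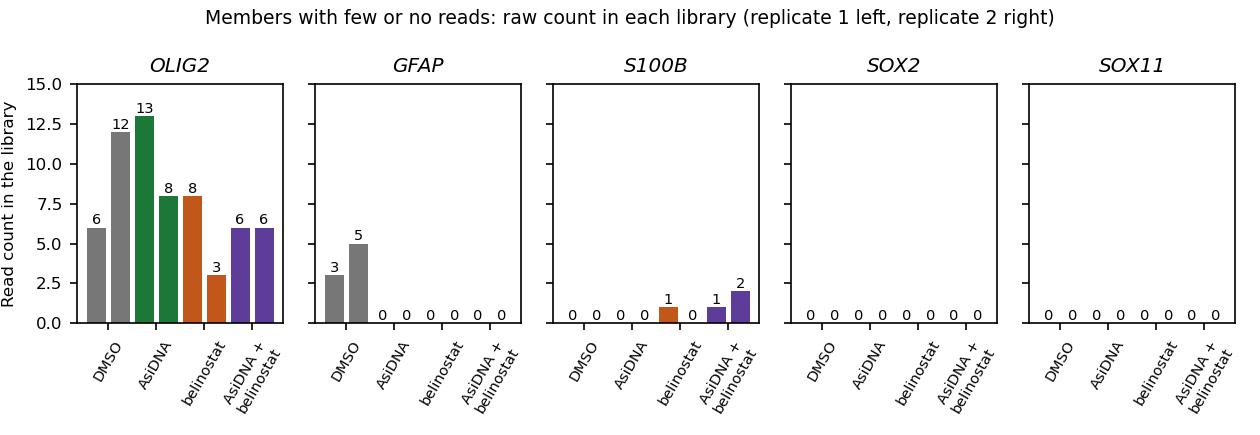
Raw read counts (vertical axis) of the 5 members with fewest reads in each of the 8 libraries, with replicate 1 on the left and replicate 2 on the right of each group. OLIG2 has 3 to 13 counts in every library, GFAP has counts in the DMSO libraries only, S100B has 0 to 2, and SOX2 and SOX11 have 0 throughout.

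Among the near-silent members, GFAP (ENSG00000131095, chromosome 17, 44903161 to 44916937, minus strand) had 3 counts in DMSO replicate 1, 5 in DMSO replicate 2 and 0 in each of the other 6 libraries. Its 8 counts in DMSO, set against the limit of 3 counts over a group, make it at least 2.08-fold lower in AsiDNA, at least 2.1-fold lower with belinostat and at least 2.08-fold lower in the combination. These values take the 8 counts as exact. With the counting error of both groups, the 95% exact interval of the ratio to DMSO reaches up to 0.75 in AsiDNA, 0.744 with belinostat and 0.751 in the combination. The annotated exons of GFAP sum to 12110 bases, so these 8 reads are a trace. S100B (ENSG00000160307, chromosome 21, 46598962 to 46605208, minus strand) had 1 count in belinostat replicate 1, 1 in combination replicate 1, 2 in combination replicate 2 and 0 elsewhere, and no ratio is given because every group lies at or under 3 counts. SOX2 (ENSG00000181449, chromosome 3, 181711924 to 181714436, plus strand) has no introns and lies inside the longer transcript SOX2-OT on the same strand, and SOX2-OT itself had 0 to 4 counts in a library. SOX11 (ENSG00000176887) is on chromosome 2, 5692667 to 5701385, plus strand. None of these 4 members passed the filter on low counts, and none was tested.

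The other 6 members passed the filter. Compared per kilobase of annotated exon, which puts genes of different length on a single scale, GJA1 stood highest in DMSO at 84.6 ± 12.3 normalised CPM per kb (SD, n = 2), followed by CSPG4 at 15.8 ± 1.96. SOX9 at 1.05 ± 0.33 and NES at 0.963 ± 0.102 overlapped. SOX4 at 0.484 ± 0.048 and OLIG2 at 0.265 ± 0.119 came last, and their libraries did not overlap. In AsiDNA the order was the same, at 91.3 ± 8.33 for GJA1, 17.3 ± 0.395 for CSPG4, 1.46 ± 0.074 for SOX9, 1.21 ± 0.16 for NES, 0.949 ± 0.205 for SOX4 and 0.408 ± 0.0856 for OLIG2, and no neighbors in that order overlapped. With belinostat NES moved up to 5.82 ± 1.56 and CSPG4 down to 4.67 ± 0.765, where their libraries overlapped, SOX9 stood at 2.54 ± 0.121, and SOX4 (0.255 ± 0.0487) overlapped with OLIG2 (0.216 ± 0.0908). In the combination NES stood at 10.0 ± 0.208 per kb, above CSPG4 at 7.16 ± 0.67 in both libraries, so that the order of these genes was the opposite of that in DMSO. SOX9 followed at 3.46 ± 0.162, and SOX4 (0.355 ± 0.224) overlapped with OLIG2 (0.264 ± 0.0491). GJA1 stayed highest, at 80.1 ± 3.14 with belinostat and 108 ± 6.31 in the combination. The exon lengths are those of GENCODE 29 on GRCh38, which may not be the annotation used for counting.

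**Figure D2:**
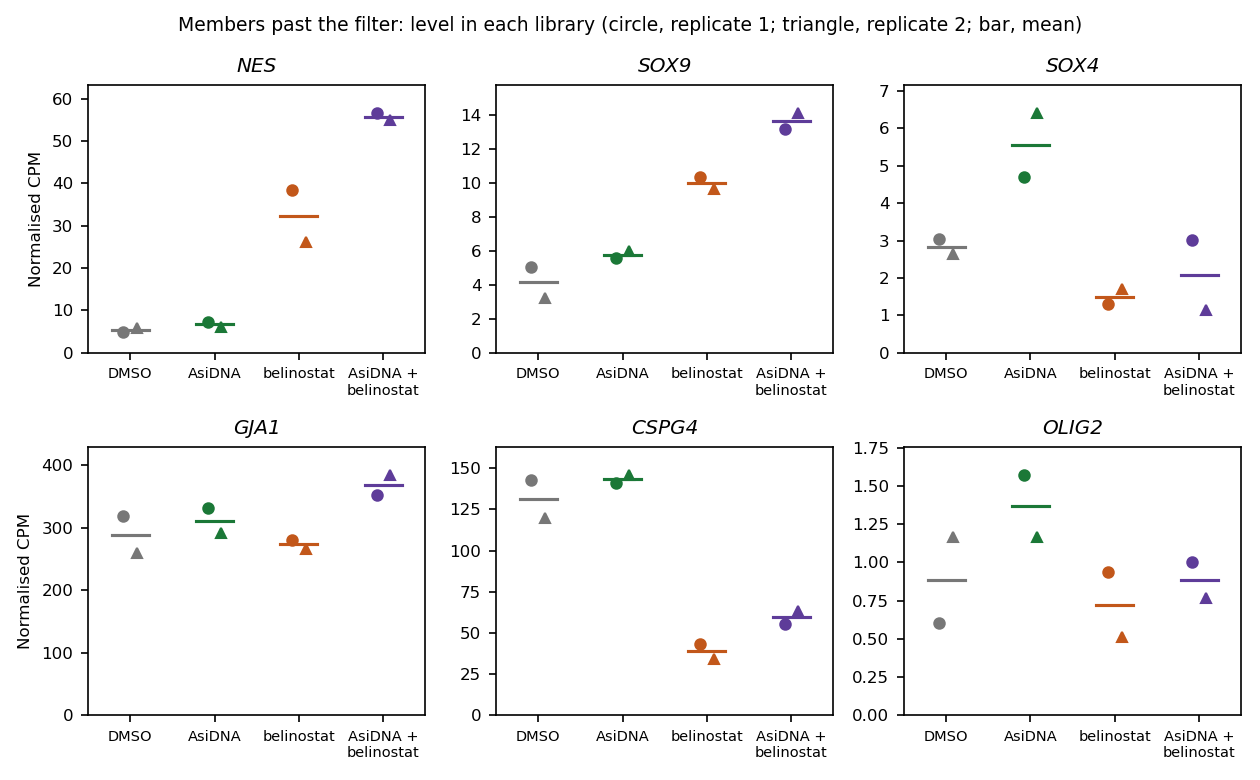
Normalised CPM (vertical axes, each from 0) of the 6 members past the filter in each library, by group, with a circle for replicate 1, a triangle for replicate 2 and a bar at the group mean. NES and SOX9 are higher in all 4 belinostat-treated libraries than in the 4 others, CSPG4 is lower, and the GJA1 libraries of DMSO overlap with those of AsiDNA and with those of belinostat.

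NES rose with belinostat in both kinds of cells, by more than any other tested member in either comparison. The gene (ENSG00000132688) lies on chromosome 1, 156668763 to 156677397 on the minus strand of GRCh38. Its RefSeq upstream sequence (GRCh38.p14, chr1:156677408-156677657, minus strand), shown because NES is the member that rose most, is printed with that of CSPG4 (chr15:75712849-75713098, minus strand), the member that fell in both comparisons. Capitals mark GC boxes (GGGCGG, or CCGCCC on the other strand).
NES: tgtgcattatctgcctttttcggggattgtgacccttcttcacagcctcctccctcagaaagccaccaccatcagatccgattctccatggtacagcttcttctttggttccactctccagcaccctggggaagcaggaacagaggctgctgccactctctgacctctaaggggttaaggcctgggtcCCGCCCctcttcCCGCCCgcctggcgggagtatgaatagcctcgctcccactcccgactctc
CSPG4: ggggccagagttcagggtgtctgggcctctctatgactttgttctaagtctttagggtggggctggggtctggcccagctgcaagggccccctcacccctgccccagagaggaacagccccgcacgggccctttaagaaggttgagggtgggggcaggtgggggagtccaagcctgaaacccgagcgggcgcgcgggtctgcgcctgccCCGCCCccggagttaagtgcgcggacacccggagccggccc
The 250 bases before the NES start hold 2 GC boxes, whose first bases lie 62 and 50 bases before it, and those of CSPG4 hold 1, at 41 bases. Of all 35116 RefSeq promoters of this length 42.6% hold at least 1. The NES stretch has 8 CpG dinucleotides and the CSPG4 stretch 14, against a median of 11. A SOX core motif (ACAAAG, or CTTTGT on the other strand) occurs once in the CSPG4 stretch and not in that of NES, and 13.7% of promoters hold it. These motifs share no bases with each other, and a match is a string of letters only. Promoter entries were matched for 5 of the 10 members (NES, SOX2, SOX4, GJA1 and CSPG4).

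NES had 49 and 59 counts in the DMSO libraries, 61 and 42 in AsiDNA, 328 and 155 with belinostat and 339 and 429 in the combination. In normalised CPM these are 4.95 and 5.75, 7.37 and 6.11, 38.5 and 26.3, and 56.6 and 54.9. All 4 libraries with belinostat lay above all 4 without it, and both combination libraries lay above both belinostat libraries. The log2 fold change was 2.60 ± 0.21 (SE) for belinostat against DMSO (adjusted p = 4.57e-07, edgeR's quasi-likelihood test), a 6.08-fold rise. It was 3.04 ± 0.21 for the combination against AsiDNA (edgeR adjusted p = 3.11e-07), an 8.21-fold rise. NES also rose in the combination against belinostat, by 0.77 ± 0.18 (edgeR adjusted p = 0.00428). The MALAT1 and NEAT1 share was 12.2% to 13.4% in the belinostat libraries and 2.06% to 3.12% in the combination libraries. In a fit without the 10 most abundant genes, MALAT1 and NEAT1 among them, NES was called in each of these comparisons. Whether the share of these RNAs bears on the NES values was not tested. Summed markers of other cell types moved both ways with belinostat. Those of the oligodendrocyte lineage, mostly CSPG4, lay at 132 to 156 normalised CPM in DMSO and 42.5 to 53.9 with belinostat. The microglia and macrophage markers were lower too, while the neuron and endothelial markers were higher. The 8 neuron markers summed to 55.1 to 73.5 normalised CPM in DMSO, 54.1 to 56.3 in AsiDNA, 205 to 215 with belinostat and 184 to 198 in the combination. Among them SNAP25 went from a mean of 45.5 in DMSO to 120 with belinostat, and SYP from 1.44 to 52.8. MAP2 went from 3.87 to 23.5, while TUBB3 went from 13.3 to 11.6. STMN2 had 0 counts and DCX 2. The 5 endothelial markers summed to 6.14 to 7.07 in DMSO, 5.55 to 8.0 in AsiDNA, 19.6 to 25.0 with belinostat and 13.7 to 16.9 in the combination. Of these PECAM1 went from 5.01 in DMSO to 19.8 with belinostat and TEK from 1.45 to 0.789. Whether these marker changes bear on the NES values was not tested. In bulk RNA, more cells with a transcript and more of it per cell cannot be told apart.

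SOX9, the transcription factor of the astrocyte and cartilage lineages (ENSG00000125398, chromosome 17, 72121020 to 72126420, plus strand), rose with belinostat as well. Its normalised CPM was 5.05 and 3.22 in DMSO, 5.55 and 5.97 in AsiDNA, 10.3 and 9.65 with belinostat, and 13.2 and 14.1 in the combination. No library with belinostat overlapped with a library without it. The log2 fold change was 1.28 ± 0.26 against DMSO (edgeR adjusted p = 0.000845) and 1.24 ± 0.25 for the combination against AsiDNA (edgeR adjusted p = 0.00125). The 2 values differed by -0.03 ± 0.35 (95% interval -0.78 to 0.72). SOX9-AS1, an antisense transcript that overlaps the SOX9 locus, had 10 and 7 counts with belinostat and at most 2 in any other library. The strand setting of the counting is not given, so reads of this pair cannot be told apart.

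CSPG4 fell with belinostat. The gene (ENSG00000173546, chromosome 15, 75674322 to 75712848, minus strand) stood at 143 and 120 normalised CPM in DMSO, 141 and 146 in AsiDNA, 43.2 and 34.2 with belinostat, and 55.4 and 63.3 in the combination. All 4 belinostat-treated libraries were below the 4 others, and the combination libraries lay above the belinostat libraries. The log2 fold change was -1.75 ± 0.15 for belinostat against DMSO (edgeR adjusted p = 6.42e-07) and -1.27 ± 0.15 for the combination against AsiDNA (edgeR adjusted p = 1.44e-05). Against belinostat alone the combination was 0.61 ± 0.15 higher (edgeR adjusted p = 0.00616). That call was lost without belinostat replicate 2 (0.52, edgeR adjusted p = 0.050011) and without combination replicate 2 (0.56, edgeR adjusted p = 0.0548). Of its pseudogene copies, CSPG4P10, CSPG4P11, CSPG4P12, CSPG4P13 and CSPG4P5 had at most 8 counts each in a library.

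SOX4 (ENSG00000124766, chromosome 6, 21592768 to 21598619, plus strand), which acts in immature neural cells, was low throughout. It had 30 and 27 counts in DMSO, 39 and 44 in AsiDNA, 11 and 10 with belinostat, and 18 and 9 in the combination. The AsiDNA libraries were highest, at 4.71 and 6.4 normalised CPM, and combination replicate 1 (3.0 normalised CPM) lay within the range of the DMSO libraries (2.63 and 3.03). In the combination against AsiDNA SOX4 fell by 1.46 ± 0.44 log2 units (edgeR adjusted p = 0.0153). This call was lost without AsiDNA replicate 2 (-1.22, edgeR adjusted p = 0.116) and without combination replicate 2 (-0.90, edgeR adjusted p = 0.184), and the value was -2.25 without combination replicate 1 (edgeR adjusted p = 0.0089). Against DMSO belinostat gave -0.94 ± 0.47 (edgeR adjusted p = 0.103, 95% interval -1.95 to 0.07), and without a filter on low counts this was -1.10 (edgeR adjusted p = 0.0398). AsiDNA against DMSO gave 0.96 ± 0.39 for SOX4 (edgeR adjusted p = 0.396).

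GJA1 (ENSG00000152661, chromosome 6, 121435577 to 121449727, plus strand), which encodes the gap junction protein that couples astrocytes, was the most abundant member in every group. Its normalised CPM was 318 and 259 in DMSO, 332 and 292 in AsiDNA, 281 and 266 with belinostat, and 353 and 384 in the combination. The combination libraries were above all 6 others. Belinostat against DMSO gave -0.08 ± 0.13 (edgeR adjusted p = 0.633, 95% interval -0.36 to 0.21). Its direction depends on the DMSO library: it was 0.07 without DMSO replicate 1 (edgeR adjusted p = 0.564) and -0.24 without DMSO replicate 2 (edgeR adjusted p = 0.0216). The combination against AsiDNA gave 0.24 ± 0.13 (edgeR adjusted p = 0.16), and this was called without DMSO replicate 1 (0.24, edgeR adjusted p = 0.00829), without DMSO replicate 2 (0.24, edgeR adjusted p = 0.00862) and with only those groups fitted (0.25, edgeR adjusted p = 0.000834). The combination against belinostat gave a rise of 0.43 ± 0.13 (edgeR adjusted p = 0.0188). This call was lost without belinostat replicate 2 (0.45, edgeR adjusted p = 0.0699) and without combination replicate 2 (0.42, edgeR adjusted p = 0.0944). The combination against DMSO gave 0.35 ± 0.13 (edgeR adjusted p = 0.0408), a call that did not hold under most alternatives, among them scaling by library size only (0.17, edgeR adjusted p = 0.216) and a fit without DMSO replicate 2 (0.21, edgeR adjusted p = 0.0659). The processed pseudogene GJA1P1 had 0 counts.

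OLIG2, the factor that commits cells to the oligodendrocyte and motor neuron lineages (ENSG00000205927, chromosome 21, 33025845 to 33029196, plus strand), had 6 and 12 counts in DMSO, 13 and 8 in AsiDNA, 8 and 3 with belinostat, and 6 and 6 in the combination. Its neighbor OLIG1 had 0. The log2 fold changes lay between -0.65 (combination against AsiDNA) and 0.62 (AsiDNA against DMSO), each with a standard error of 0.57 to 0.68, and no comparison passed the test. A 2-fold difference in OLIG2 would not be detectable at this depth: the 95% interval for belinostat against DMSO runs from -1.62 to 1.14.

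**Figure D3:**
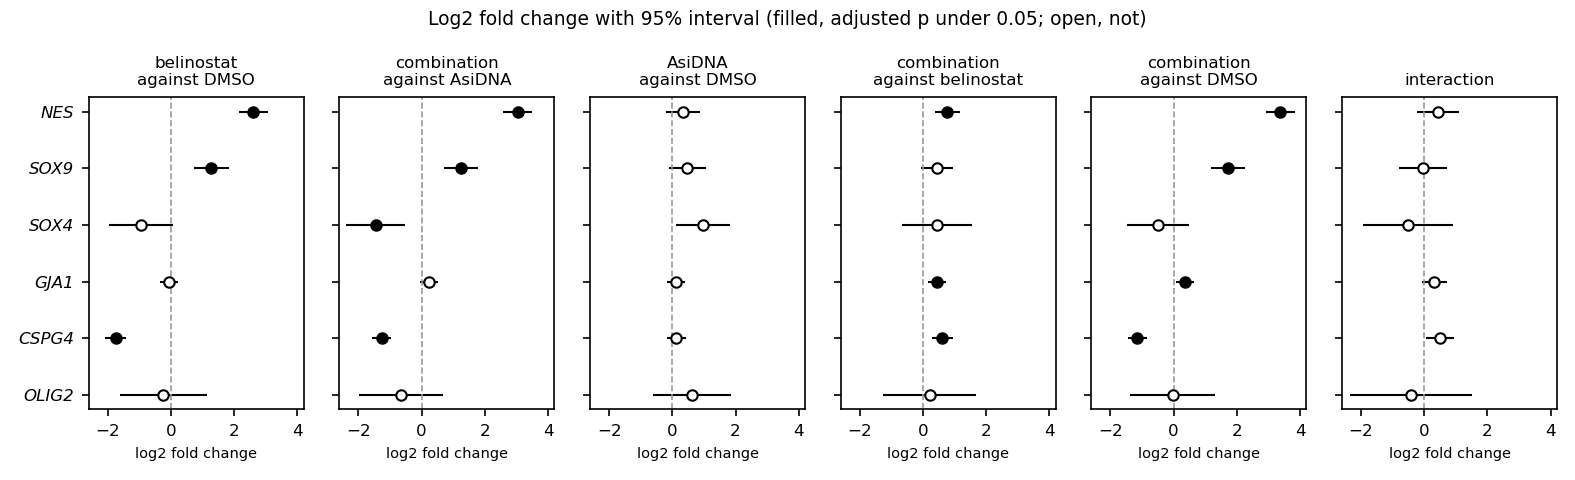
Log2 fold change (horizontal axes) of the 6 members in 5 comparisons between groups and in the interaction, with 95% intervals from the fit to all genes; filled points have an adjusted p under 0.05. NES, SOX9 and CSPG4 are filled in the first 2 panels, and no member is filled for AsiDNA against DMSO or for the interaction.

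For belinostat against DMSO, 2 of the 6 tested members rose and 1 fell, while 57.4% of all tested genes were called (29.8% higher and 27.6% lower). A share of 3 in 6 is near this background. For the combination against AsiDNA 2 rose (NES and SOX9) and 2 fell (CSPG4 and SOX4), against 42.9% of all genes (21.7% higher and 21.2% lower). For the combination against DMSO, which shares the DMSO libraries with the first comparison, 3 rose and 1 fell, against 48.1% of all genes (24.3% higher and 23.7% lower). There NES rose by 3.38 ± 0.21 (edgeR adjusted p = 1.22e-07), SOX9 rose by 1.72 ± 0.25 (edgeR adjusted p = 9.43e-05) and CSPG4 fell by 1.14 ± 0.14 on the log2 scale (edgeR adjusted p = 2.91e-05). The median log2 fold change of the 6 members was -0.16 for belinostat against DMSO and -0.20 for the combination against AsiDNA, beside 0.06 and 0.02 over all tested genes. The median absolute change was 1.11 and 1.26, beside 0.66 and 0.52. Scaling by library size only moved the median of all genes from 0.06 to -0.08 for belinostat against DMSO, and the calls for NES, SOX9 and CSPG4 held under it.

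AsiDNA alone gave no call among the members in edgeR's quasi-likelihood test or in DESeq2, which gave OLIG2 no adjusted p. In edgeR, 1 member (SOX4) had an unadjusted p under 0.05. Over all genes 3 were called, or 0.0204%, and 11.4% had an unadjusted p under 0.05. NES (0.34 ± 0.24), SOX4 and SOX9 (0.48 ± 0.27) had both AsiDNA libraries above both DMSO libraries, as had 21% of all tested genes. The result depends on the DMSO libraries: without DMSO replicate 1, 4 members were called higher (SOX4, SOX9, GJA1 and CSPG4), and 4955 genes over the whole table, and without DMSO replicate 2 none of the members and 62 genes.

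The combination against belinostat asks how the 2 kinds of cells differ once both have received belinostat. NES, CSPG4 and GJA1 were higher in the combination and no member was lower, while 43.4% of all genes were called (22% higher and 21.4% lower). Leaving out belinostat replicate 2 or combination replicate 2 left 1 member called, NES. SOX9 was at 0.45 ± 0.24 (edgeR adjusted p = 0.141), called at 0.47 without either DMSO library (edgeR adjusted p = 0.0403 and 0.0404), and SOX4 was at 0.44 ± 0.52. The interaction tests whether the belinostat effect differed with AsiDNA. No member passed in edgeR's quasi-likelihood test or in DESeq2, 1 member (CSPG4) had an unadjusted p under 0.05, as had 21.7% of all genes, and 1 gene over the whole table was called (0.00678%). CSPG4 was at 0.48 ± 0.21 (edgeR adjusted p = 0.196) and NES at 0.43 ± 0.30 (edgeR adjusted p = 0.424, 95% interval -0.22 to 1.09). With single libraries left out the interaction ranged from 0.35 to 0.74 for CSPG4 and from 0.27 to 0.82 for NES. For GJA1 it ranged from 0.17 to 0.48.

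Related genes were counted in lists beside the members. Of 32 further genes of neural stem and progenitor cells 18 were tested and 6 had 0 counts in all libraries. With belinostat against DMSO 9 fell and 2 rose (median -0.39), and in the combination against AsiDNA 8 fell and 5 rose (median -0.11). Over all tested genes 57.4% (29.8% higher and 27.6% lower) and 42.9% (21.7% higher and 21.2% lower) were called in these comparisons. The 11 of 18 called in either direction is near the share of the first, but the directions are split unlike it. VIM is in this list, the astrocyte list and the intermediate filament list. The receptor gene NOTCH1, which maintains progenitors, fell by 1.52 ± 0.13 on the log2 scale in each (edgeR adjusted p = 7.26e-07 and 1.57e-06). The helix-loop-helix inhibitor ID3 was at -1.70 ± 0.20 and -1.79 ± 0.20, and FUT4, which makes a surface glycan of stem cells, at -3.85 ± 0.49 and -3.03 ± 0.47, all called. The 2 that rose with belinostat were NFIA, a factor of gliogenesis, at 1.85 ± 0.36, and FABP7, a lipid carrier of radial glia, which went from 2 counts in DMSO to 20 in the belinostat libraries, a depth-corrected ratio of 12.7 (95% exact interval 3.08 to 112). NFIA and FABP7 are named because of these values.

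Other lists divided by family. Of the 15 other SOX genes only SOX5, SOX12 and SOX13 were tested, and 7 had 0 counts in all libraries. SOX5 rose, by 1.18 ± 0.17 against DMSO and by 0.95 ± 0.19 in the combination against AsiDNA. SOX12 (0.51 ± 0.26) and SOX13 (1.03 ± 0.43) did not pass for belinostat against DMSO, but SOX12 did without DMSO replicate 1 (0.59, edgeR adjusted p = 0.0303) and SOX13 without DMSO replicate 2 (1.86, edgeR adjusted p = 0.000703). For the combination against AsiDNA SOX13 was called without either DMSO library (0.99 each). Of 9 tested astrocyte genes 5 rose and 2 fell in each comparison (medians 0.76 and 0.76), beside 57.4% and 42.9% of all genes called. The secreted chaperone CLU rose by 1.32 ± 0.14 and 1.19 ± 0.14 and the secreted glycoprotein gene CHI3L1 by 3.71 ± 0.41 and 3.04 ± 0.50, while the bicarbonate transporter SLC4A4 fell by 1.22 ± 0.20 and 1.05 ± 0.21. Of 6 tested oligodendrocyte lineage genes 1 rose (ENPP2, 1.96 ± 0.14) and 3 fell with belinostat, beside 29.8% and 27.6% of all genes, among them UGT8 (-1.65 ± 0.21) and the myelin gene MBP (-1.57 ± 0.32). CNP, at -0.59 ± 0.18, was not called without DMSO replicate 1 (-0.29, edgeR adjusted p = 0.0594). Without that library 2 of the 6 were higher and 2 lower.

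For belinostat against DMSO NES moved against the other tested intermediate filament genes. Vimentin (VIM), its usual partner in progenitor filaments, was lower, at -1.66 ± 0.19 log2 for belinostat against DMSO and -0.57 ± 0.18 for the combination against AsiDNA. The lamin genes LMNB1 (-2.64 ± 0.17), LMNB2 (-1.57 ± 0.13) and LMNA (-0.36 ± 0.13) fell with belinostat as well, so that all 4 tested genes of the list were lower. Over all tested genes 27.6% were called lower there. In the combination against AsiDNA 3 of the 4 were lower, beside 21.2% of all genes, and LMNA was at 0.03 ± 0.13. In the combination against belinostat all 4 were called higher (median 0.75), as was NES. VIM stood at 1425 ± 74.9 normalised CPM with belinostat, where NES was at 32.4 ± 8.65. Among the connexin genes tested beside GJA1, GJC1 fell by 1.11 ± 0.16 log2 units with belinostat, and GJB2 went from 19 counts in DMSO to 2 in the belinostat libraries, a depth-corrected ratio of 0.134 (95% exact interval 0.0151 to 0.554). The fitted GJB2 change against DMSO was -2.65 ± 0.99 (edgeR adjusted p = 0.0339), and it was -1.97 ± 1.26 and not called without DMSO replicate 1 (edgeR adjusted p = 0.18). Of 9 tested S100 genes 6 fell and none rose with belinostat (median -0.94), beside 27.6% of all genes called lower and 29.8% higher. The 4 with the smallest adjusted p were S100A16 (-1.65 ± 0.13), S100A6 (-0.96 ± 0.14), S100A10 (-0.97 ± 0.18) and S100A11 (-0.94 ± 0.19). S100A2, named here for its size, was at -1.39 ± 0.34. In the combination against AsiDNA 3 fell (median -0.36), beside 21.2% of all genes. No gene of these lists was called for AsiDNA against DMSO, where 3 of all 14741 tested genes were called (0.0204%).

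**Figure D4:**
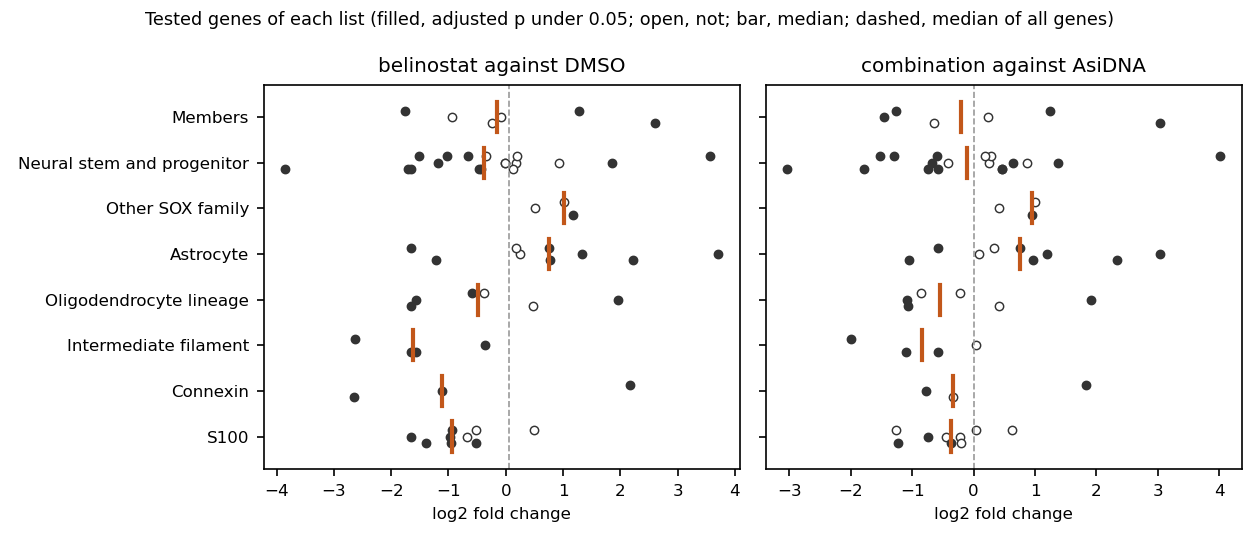
Log2 fold change (horizontal axes) of each tested gene of the members and of the 7 lists of related genes for belinostat against DMSO (left) and the combination against AsiDNA (right). Filled points have an adjusted p under 0.05, bars are list medians and the dashed line is the median of all tested genes; the intermediate filament list lies to the left at -1.61 and -0.84.

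Over the 8 libraries, the log2 CPM of NES was most like that of IGSF8 (Pearson r = 0.998) and PLA2G4A (0.997), that of SOX9 like SNX2 (0.995) and TIMP3 (0.995), and that of CSPG4 like CNDP2 (0.999) and FAM111B (0.998). GJA1 was most like YIPF5 (0.99) and VAMP7 (0.985). For the members with few counts the likeness was weaker, with TTC4 (0.975) nearest to SOX4 and MTX2 (0.88) nearest to OLIG2. These 8 points are 4 groups of 2 that share the belinostat contrast, in which 57.4% of genes were called, and the values describe the libraries only.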

How the data were processed

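Ribosomal RNA was removed from total RNA of U87 cells with Ribo-Zero Gold and stranded TruSeq libraries were made, per the labels' protocols. The submitters' processing notes name cutadapt 1.16, STAR 2.7.0, featureCounts 1.6.3 of Subread and the build GRCh38. The authors deposited raw read counts per Ensembl gene, 1 column per library. Neither an annotation release nor a strand setting is given in the sources used here.

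Of 58884 identifiers 58472 were named from a gene name table and 404 from GENCODE 29. With edgeR 4.0.16 in R 4.3.3, filterByExpr left 14741 genes, libraries were scaled by TMM, and all 8 libraries entered a single fit with a mean per group (4 residual degrees of freedom). Contrasts were taken with the quasi-likelihood F-test, Benjamini-Hochberg adjustment ran over the whole set of tested genes, and calls have an adjusted p under 0.05. A standard error is the absolute log2 fold change over the square root of F. Normalised CPM is the count scaled to the TMM-adjusted library total, and log2 CPM used a prior count of 2. Ratios of low counts carry exact binomial intervals (95%). The fit was run on simulated data with the same spread in every group. This does not cover the wider spread of the DMSO replicates here.

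The members and lists were chosen with earlier results of these data known. Named were all members, up to 4 genes per list with the smallest adjusted p for belinostat against DMSO, and the 2 genes most correlated with each tested member over the libraries (mean log2 CPM of at least 2). Alternatives were RLE factors, library size only, a fit without the 10 most abundant genes, DESeq2 1.42.0, other filters, only the groups compared, a replicate block and each library left out. Those run on the lists were chosen after seeing the data. Not every gene of the lists is reported here.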

Additional observations from a re-analysis of the deposited data

How the results depend on the processing

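Depth limits the members with few reads: the lowest library held 3 counts of OLIG2, 9 of SOX4, 33 of SOX9 and 42 of NES, and 4 members were not tested. With 2 libraries a group, leaving out 1 leaves a lone sample that is assumed to vary like the other groups. Under the 8 alternatives that leave out no library, and under each left-out library, NES, SOX9 and CSPG4 were called in the same direction for belinostat against DMSO, the combination against AsiDNA and the combination against DMSO. Of 566 recomputed log2 fold changes of members 519 kept their direction and side of the threshold, 17 lost the call, 13 gained it and 17 changed sign.

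The number of members called did not change by over 1.5 times in any alternative that keeps all libraries. With single libraries left out it ranged from 0 to 4 for AsiDNA against DMSO, from 1 to 4 for the combination against belinostat and from 0 to 2 for the interaction. Over all genes, AsiDNA against DMSO had 3 calls, and 1 with library size only, 33 in DESeq2, 520 without a filter, 0 with only the groups compared, 5 with the replicate block, and 0 to 4955 with single libraries left out. The interaction had 1 call, and 10 with RLE factors, 157 with library size only, 365 without the 10 most abundant genes, 614 in DESeq2, 1549 without a filter, 351 with at least 1 CPM in 2 libraries, 19 with the replicate block, and 0 to 5358 with single libraries left out. Calls ranged from 4102 to 8247 for the combination against AsiDNA and from 3142 to 8477 for the combination against belinostat with single libraries left out: the former fell from 6319 to 4102 without AsiDNA replicate 1 and 4198 without AsiDNA replicate 2, the latter from 6398 to 4220 without belinostat replicate 1, 3727 without belinostat replicate 2 and 3142 without combination replicate 2. The interaction could not be fitted with only the groups compared. The cause was not tested.

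The sign of the SOX9 interaction turned, never called, to 0.036 without the 10 most abundant genes, 0.074 without a filter and 0.038 with at least 1 CPM in 2 libraries, and it ranged from -0.38 to 0.28 with single libraries left out. With single libraries left out the log2 fold change ranged from -0.24 to 0.069 for GJA1 and from -0.88 to 0.29 for OLIG2 (belinostat against DMSO), from -0.029 to 0.29 for GJA1 (AsiDNA against DMSO), from -0.044 to 0.82 for OLIG2 and from -0.27 to 1.07 for SOX4 (combination against belinostat), from -0.40 to 0.51 for OLIG2 and from -1.30 to 0.044 for SOX4 (combination against DMSO), and from -0.94 to 0.22 for OLIG2 and from -1.22 to 0.13 for SOX4 (interaction).

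Replicate numbers did not pair the libraries: the differences between replicates 1 and 2 correlated between groups from -0.20 to 0.14. The replicate block changed no call of a member, with NES at 2.58 for belinostat against DMSO. Among the named list genes, LMNA (-0.099) and S100A11 (-0.092), neither called, changed sign for the combination against AsiDNA when scaled by library size only.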
